A study of Mus musculus with 113 samples.

Results

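The transcription factors Pax6, Six3, Six6, Rax, Lhx2, Lhx5, Emx2, Hesx1 and Fezf1 pattern the front end of the neural plate, and their transcripts were followed through neural differentiation of mouse embryonic stem cells (mESCs). The members are 9 gene symbols, of the 23739 in the 4 deposited expression tables, and were chosen by name. Of these, 6 are in the table of suspension-culture populations (Pax6, Six6, Lhx2, Lhx5, Emx2 and Fezf1), 6 in that of the adherent culture (Pax6, Six3, Lhx2, Lhx5, Hesx1 and Fezf1), 5 in that of single cells (Pax6, Six6, Lhx2, Hesx1 and Fezf1) and all 9 in the table of Fyn knockout cells.

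The study differentiated R1 mESCs as serum-free floating aggregates of embryoid body-like type (SFEB) in GKSR medium, or as an adherent monoculture in N2B27 medium on gelatin. In both cultures the cells were replated on day 6 onto PDL/laminin/fibronectin. SFEB populations were sampled in a first series of 14 libraries from 0 to 142 h and a parallel series of 8 libraries from 0 to 216 h, the latter with 8 single cells at each of its 8 times (64 cells), and the adherent culture gave 15 libraries from 0 to 216 h. Another mESC line, E14, wild type (WT) or carrying a CRISPR deletion in Fyn, a Src family kinase, was sampled at day 0 and day 4 with 3 replicates in each of the 4 groups. The knockout (KO) is 1 clone, so its differences from WT cannot be told apart from those of a clone. The E14 labels do not say which of the culture protocols was used, and nothing says that the 3 replicates were separate cultures, so p-values measure only the spread between these libraries.

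Early in development the anterior neural plate becomes committed to forebrain, and a central patch of it, the eye field, expresses Rax, Pax6, Six3, Six6 and Lhx2 together. Six3 and Hesx1 hold back Wnt-driven posterior fate at the anterior end, Fezf1 and Lhx5 act in the forming telencephalon and diencephalon, and Emx2 patterns the dorsal telencephalon. Pax6 is broader than the others and also marks neural progenitors of the hindbrain and spinal cord, so it is not in itself a sign of forebrain.

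The values are FPKM, which are fragments scaled to transcript length and to the mapped library, or, in single cells, RPKM, the same for reads. Read counts were not analysed here, so the depth behind a value is unknown. Values above 0 covered 13369 to 13538 genes in SFEB libraries, 13608 to 13676 in adherent libraries, 15125 to 16474 in E14 libraries and 5648 to 10437 in single cells. The 4 tables were normalized separately, and values from different tables stand side by side without a test. A lower value in a bulk library can come from fewer cells of a type or from less RNA per cell, which cannot be told apart. Pluripotency markers were present in every group at the start, at a summed level of 1840 FPKM over 7 genes in the SFEB first series at 0 h and 123 FPKM at 142 h. The deletion was checked first. Fyn was at 3.21, 2.74 and 4 FPKM in WT day 0, 9.44, 4.54 and 6.76 FPKM in WT day 4, 0.598, 0.598 and 1.1 FPKM in KO day 0 and 1.19, 1.13 and 1.58 FPKM in KO day 4. The groups did not overlap at either day, and the difference of KO from WT was -1.74 on the log2 scale at day 4 (adjusted p = 0.0193, limma) and -1.29 at day 0 (adjusted p = 0.0601, limma), where it did not pass.

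Promoter sequences are shown for Lhx2 and Fezf1, which had closely matching courses in the SFEB populations, and for Six6, whose rise was short in the first series. Each is 300 bases from RefSeq on build GRCm38.p6, mostly upstream of an annotated start, read 5′ to 3′ on the gene's strand. Capitals mark a match, on either strand, to TAATTA (a homeodomain core), to TAATCC (bicoid-type factors such as Otx2), to ACAAAG (SOX factors) or to the CCAAT box, the last of which was added after the sequences had been read.
Lhx2, chr2:38339031-38339330, plus strand: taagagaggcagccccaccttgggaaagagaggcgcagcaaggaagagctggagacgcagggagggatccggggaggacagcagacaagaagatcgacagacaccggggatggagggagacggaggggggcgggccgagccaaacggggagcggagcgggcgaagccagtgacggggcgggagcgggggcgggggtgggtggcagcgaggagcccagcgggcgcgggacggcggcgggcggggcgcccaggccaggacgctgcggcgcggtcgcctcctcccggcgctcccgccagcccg
Lhx2, second start, chr2:38351058-38351357, plus strand: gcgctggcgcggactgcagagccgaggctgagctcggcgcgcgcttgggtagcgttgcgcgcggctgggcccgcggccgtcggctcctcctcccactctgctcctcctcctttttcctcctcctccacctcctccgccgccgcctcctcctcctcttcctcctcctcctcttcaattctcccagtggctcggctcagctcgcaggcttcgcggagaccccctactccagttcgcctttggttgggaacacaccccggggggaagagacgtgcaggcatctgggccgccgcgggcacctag
Fezf1, chr6:23248215-23248514, minus strand: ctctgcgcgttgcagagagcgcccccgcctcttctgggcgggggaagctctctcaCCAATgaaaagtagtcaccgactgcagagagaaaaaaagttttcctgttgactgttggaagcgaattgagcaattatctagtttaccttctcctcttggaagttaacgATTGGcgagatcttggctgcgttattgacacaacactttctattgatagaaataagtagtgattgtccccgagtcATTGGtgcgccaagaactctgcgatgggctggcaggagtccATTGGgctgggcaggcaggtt
Six6, chr12:72939632-72939931, plus strand: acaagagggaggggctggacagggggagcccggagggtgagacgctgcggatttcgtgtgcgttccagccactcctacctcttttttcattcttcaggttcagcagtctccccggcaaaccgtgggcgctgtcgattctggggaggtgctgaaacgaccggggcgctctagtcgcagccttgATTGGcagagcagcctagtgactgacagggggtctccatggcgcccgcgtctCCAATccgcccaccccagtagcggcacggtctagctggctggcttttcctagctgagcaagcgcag
Neither Lhx2 window held any of these letter strings. The Fezf1 window held CCAAT at 4 positions and the Six6 window at 2. At least 1 CCAAT stood in 37.4% of the 32851 promoters in the table, and 4 or more in 1.06%. The Lhx2 windows had 34 and 29 CpG dinucleotides, the Six6 window 20 and the Fezf1 window 13, against a median of 7 over all promoters. Windows were read for 7 of the 9 members, 9 windows in all, and none for Rax or Lhx5. The search for member windows left out a chromosome, so a missing window need not mean a missing entry. TAATTA was found only in the Emx2 window among these 9, at 1 position, and in 5.29% of all promoters. TAATCC was in none of the 9 and in 7.06% of all promoters. ACAAAG was in 1 of the 2 Pax6 windows and in 18.7% of all promoters. A match of letters is a description of the sequence and not a binding site.

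In the SFEB populations all 6 members in the table changed with time along a natural spline with 3 degrees of freedom and a term for series, and each fitted curve ended higher than it began. For the time courses, rose and fell refer to the end of the fitted curve against its start. The largest of the fitted changes were those of Lhx2, Lhx5 and Fezf1, at 4.63, 4.43 and 4.01 on the log2(FPKM + 1) scale between the lowest and highest fitted points. Pax6 spanned 2.71, Emx2 2.79 and Six6 1.11. The adjusted p-values were 4.57e-11 for Lhx2, 1.20e-10 for Lhx5, 1.10e-09 for Fezf1, 5.30e-07 for Pax6, 1.26e-04 for Emx2 and 0.0226 for Six6 (limma, Benjamini-Hochberg over all genes). By this test 87.9% of the 13530 genes changed, so that 6 of 6 is near the background. With the first series alone all 6 also passed, but the fitted curve of Six6 ended lower than it began (end minus start -0.20 on the log2 scale), with its highest point at 92 h, and the other 5 ended higher. The observed Six6 values were 0.0556 FPKM at 0 h and 0.160 FPKM at 142 h. Both are low values of 1 library, so the data show neither a lower nor a higher end. The median span was 3.40 over the 6 members and 1.03 over all genes.

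**Figure D1:**
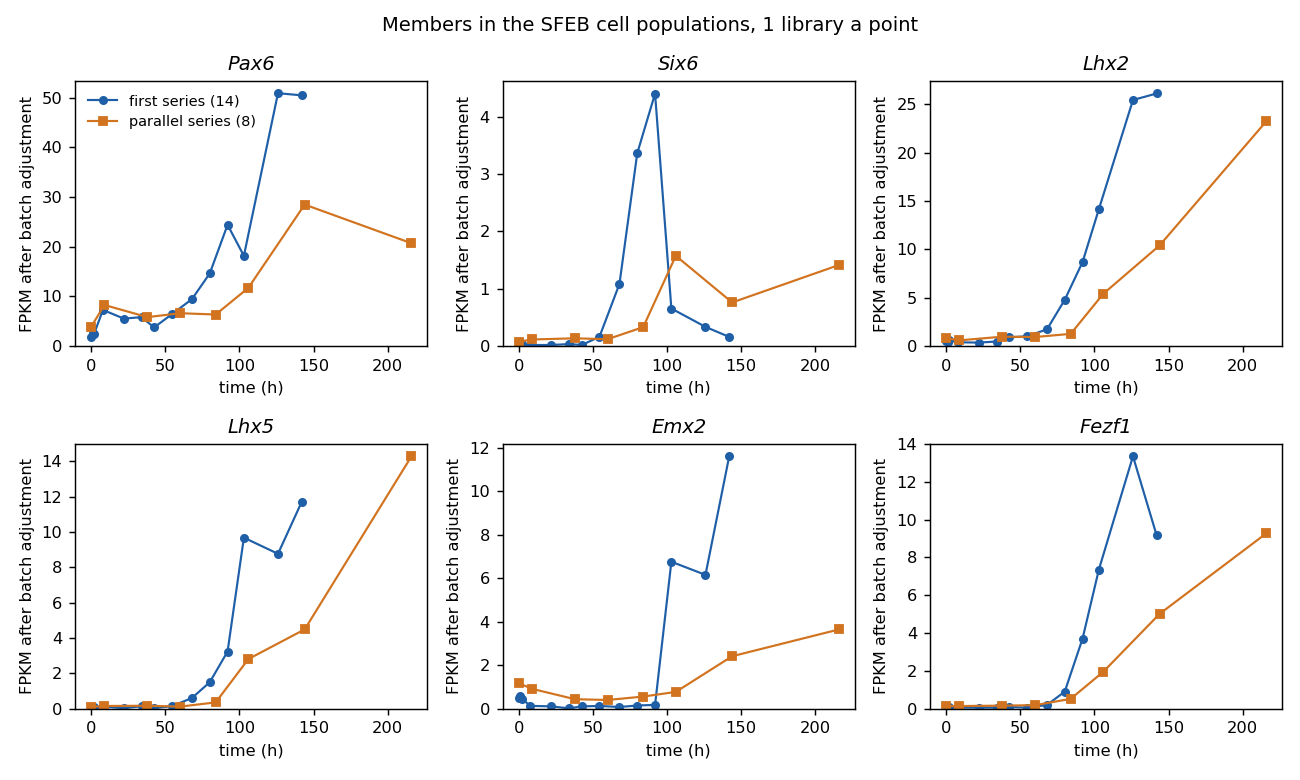
FPKM after batch adjustment (vertical axis) against time in hours (horizontal axis) for the 6 members in the SFEB table; circles are the 14 libraries of the first series and squares the 8 of the parallel series. Pax6 starts above 1 FPKM, Lhx2, Lhx5 and Fezf1 climb after 60 h, and Emx2 steps up at 103 h in the first series. Six6 peaks at 92 h and falls back in the first series, and in the parallel series it peaks at 106 h and ends at 1.41 FPKM.

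Pax6, a paired-box and homeodomain factor (chr2:105509053-105543317 on mm9, plus strand, GENCODE M1), was above 1 FPKM in the 0 h populations. It was at 1.87 FPKM at 0 h, 2.72 at 1 h and 2.49 at 2 h in the first series and at 3.90 FPKM at 0 h in the parallel series. It stood at 7.28 FPKM at 8 h and 8.27 FPKM at 9 h, higher than at 0 h in both series, and then between 3.76 and 6.62 FPKM from 22 to 60 h. From 68 h the first series climbed from 9.46 to 14.6, 24.4 and 18.2 FPKM at 80, 92 and 103 h, and to 50.9 and 50.5 FPKM at 126 and 142 h. The parallel series stayed at 6.36 FPKM at 84 h, and reached 11.7 at 106 h, 28.5 at 144 h and 20.7 at 216 h. The 8 single cells at 0 h had a mean of 0.121 RPKM and a highest value of 0.413 RPKM, and the 3 E14 WT day 0 libraries had 0.121 to 0.214 FPKM. The 10 fibroblast markers summed to 835 and 874 FPKM in the 0 h populations and to 354 FPKM at 8 h, where Pax6 was higher, and their part in the early Pax6 values was not tested. The first 12 libraries, up to 60 h, had a median of 5.68 FPKM and the later 10 a median of 19.4.

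A limit of the Pax6 values lies in the gene next to it. Elp4, a subunit of the Elongator complex, is transcribed from the other strand and its exons cover 5542 of the 19833 exonic bases of Pax6 in GENCODE M1 (27.9%). The Nextera XT libraries do not mark strand, so reads from the shared part cannot be assigned by strand. Elp4 was present from the start, at 5.30 FPKM at 0 h, and reached 11.2 FPKM at 126 h in the first series. In the 6 E14 day 0 libraries Elp4 was at 3.93 to 6.24 FPKM and Pax6 at 0.0451 to 0.496 FPKM. Those libraries are of another line and were normalized separately. The share of Elp4 in the SFEB values of the first 60 h was not tested.

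Lhx2, a LIM-homeodomain factor needed for eye and cortex formation (chr2:38194801-38225253, plus strand), stayed between 0.359 and 1.01 FPKM in the 12 libraries up to 60 h. In the first series it then went through 1.73 FPKM at 68 h, 4.78 at 80 h, 8.68 at 92 h, 14.1 at 103 h, 25.4 at 126 h and 26.1 at 142 h. In the parallel series it was at 1.26, 5.40, 10.4 and 23.2 FPKM at 84, 106, 144 and 216 h. No library after 60 h was as low as the highest library before it.

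Lhx5, its relative in the diencephalon (chr5:120881895-120891466, plus strand), followed a like course at a lower level. It was at most 0.172 FPKM up to 60 h, at 0.609 FPKM at 68 h, 1.50 at 80 h, 3.24 at 92 h, 9.68 at 103 h, 8.76 at 126 h and 11.7 at 142 h. The parallel series rose from 0.362 FPKM at 84 h to 2.81, 4.49 and 14.3 FPKM at 106, 144 and 216 h.

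Fezf1, a zinc-finger repressor of the forebrain (chr6:23195047-23198264, minus strand), was at most 0.191 FPKM up to 60 h. Its lowest value, 0.0607 FPKM, occurs unchanged in 5 of the 14 first-series libraries, so differences among these low values carry no information. The same limit holds for Six6, whose lowest value of 0.0189 FPKM occurs in 3 of the 14, and for Lhx5, with 0.0364 FPKM in 2. Fezf1 reached 0.906 FPKM at 80 h, 3.70 at 92 h, 7.35 at 103 h, 13.3 at 126 h and 9.16 at 142 h in the first series. The parallel series gave 0.524, 1.96, 5.02 and 9.27 FPKM at 84, 106, 144 and 216 h. Across the 22 populations, Pearson's r of log2(FPKM + 1) was 0.986 between Lhx2 and Lhx5, 0.983 between Lhx2 and Fezf1 and 0.983 between Lhx5 and Fezf1. These are descriptions of 22 libraries that share a time axis, with no test.

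Emx2, a homeodomain factor of the dorsal telencephalon (chr19:59533180-59539847, plus strand), came on late and in a step in the first series. It was at 0.179 FPKM at 92 h, 6.77 at 103 h, 6.16 at 126 h and 11.6 at 142 h. The 3 mesoderm markers present summed to 5.40, 16.2 and 4.74 FPKM at 92, 103 and 126 h and the 3 endoderm markers to 2.92, 6.22 and 3.70 FPKM, and their part in the step was not tested. The parallel series showed no such step, at 0.562 FPKM at 84 h, 0.776 at 106 h, 2.42 at 144 h and 3.65 at 216 h. Its 0 h libraries were not at the bottom of its range: the first series began at 0.474 FPKM and the parallel series at 1.18 FPKM. The mESCs were grown on feeder cells, which were to be removed by a passage before differentiation. The fibroblast markers given above for these libraries were at 16.02 FPKM in all at 68 h, and all 10 were at 1 FPKM or more at 0 h. Their part in the early Emx2 values was not tested.

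Six6, a Six-family factor of the retina and hypothalamus (chr12:74040932-74045886, plus strand), was the one member that returned to its early level within the first series. It was at most 0.161 FPKM through 60 h, then at 1.08 FPKM at 68 h, 3.36 at 80 h and 4.40 at 92 h. It dropped to 0.655 FPKM at 103 h, 0.335 at 126 h and 0.160 at 142 h. The parallel series held 0.330 FPKM at 84 h, 1.57 at 106 h, 0.760 at 144 h and 1.41 at 216 h. The spline with 3 degrees of freedom followed this pulse poorly, with a residual SD of 0.62 on the log2 scale against a span of 1.11. Pearson's r between Six6 and Emx2 over the 22 populations was 0.00374.

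At near-matched hours most members were lower in the parallel series than in the first. Lhx2 at 84 h in the parallel series was 1.26 FPKM and at 80 h in the first series 4.78 FPKM, a ratio of 3.79. For Lhx5 the ratio of these libraries was 4.16, for Pax6 2.30, for Fezf1 1.73 and for Six6 10.2, while for Emx2 it was 0.269. At 103 against 106 h the ratio was 1.55 for Pax6, 2.62 for Lhx2, 3.44 for Lhx5, 3.76 for Fezf1 and 8.71 for Emx2, and for Six6 it was 0.416. At 142 against 144 h the ratio was 2.51 for Lhx2, 2.61 for Lhx5, 1.77 for Pax6, 1.82 for Fezf1 and 4.80 for Emx2, while for Six6 it was 0.210. The 7 pluripotency markers summed to 123 FPKM at 142 h in the first series and to 523 FPKM at 144 h in the parallel series. In the same pair of libraries the 3 mesoderm markers present summed to 3.89 and 22.1 FPKM, the 3 endoderm markers to 2.99 and 15.7 FPKM and the 3 surface ectoderm markers to 18.1 and 101.5 FPKM. The mesoderm markers were at 17.3 and 32.5 FPKM at 84 and 106 h of the parallel series. The part of these cells in the gaps was not tested. Each time point is 1 library, so these gaps have no replicate check. The values had been batch-adjusted, and the part of that adjustment in the gaps was not tested.

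By the first library at 1 FPKM or more, the order in the first series was Pax6 from the start, Lhx2 at 54.5 h, Six6 at 68 h, Lhx5 at 80 h, Fezf1 at 92 h and Emx2 at 103 h. In the parallel series, which has fewer times, Lhx2 came at 84 h, and Six6, Lhx5 and Fezf1 all at 106 h. Emx2 was at 1.18 FPKM at 0 h there and stayed at 1 FPKM or more from 144 h. Lhx2 passed 1 FPKM at 54.5 h by a small margin, at 1.01 FPKM, and at a limit of 2 FPKM its onset was 80 h, the same library as Six6. At that limit Lhx5 and Fezf1 both came at 92 h and Emx2 at 103 h. At 0.5 FPKM Emx2 was first reached at 1 h, Lhx2 at 2 h, Six6 and Lhx5 both at 68 h and Fezf1 at 80 h, with Emx2 staying above from 103 h. The order of the members therefore depends on the limit.

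The adherent culture gave part of this picture. Pax6, Lhx2 and Lhx5 rose there, with spans of 2.09, 2.59 and 2.81 on the log2 scale and adjusted p-values of 3.20e-05, 3.65e-06 and 1.45e-08 (limma). Hesx1 had a span of 0.61 and an adjusted p of 0.0794 (limma). It passed under 5 of 6 alternatives, with a span of 0.56 to 2.25 and an adjusted p of 0.0113 to 0.0811 (limma) over the 6, and its fitted curve ended lower than it began in each. Six3 and Fezf1 were above 0.5 FPKM in only 2 libraries each and were not tested. With the filter left out, Fezf1 passed at a span of 0.66 (adjusted p = 0.00217, limma) and Six3 did not at 0.91 (adjusted p = 0.108, limma). The 3 of 4 members called stand against 70.8% of the 13527 genes tested. The median span was 2.34 over the 4 members and 0.90 over all genes.

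**Figure D2:**
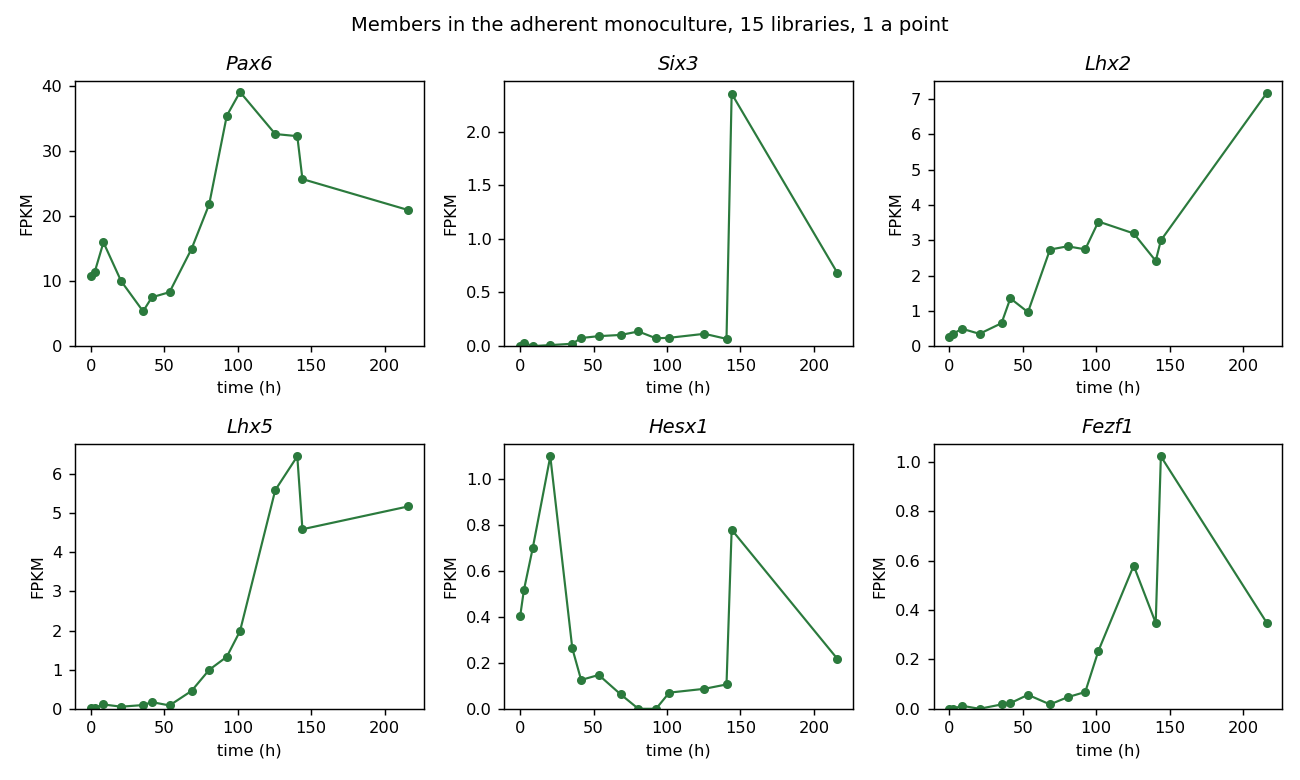
FPKM (vertical axis, own scale in each panel) against time in hours (horizontal axis) for the 6 members in the adherent table, 1 library a point. Pax6 is highest at 101.5 h and lower again by 216 h, Lhx2 and Lhx5 climb, and Six3, Hesx1 and Fezf1 are each higher at 144 h than at 140.5 h.

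Pax6 was higher at the start than in the SFEB table, at 10.8 FPKM at 0 h and 15.9 at 8.5 h, with fibroblast markers summing to 387 and 284 FPKM in these libraries. It went down to 5.35 FPKM at 35.5 h and up to 39.0 FPKM at 101.5 h, and ended at 20.9 FPKM at 216 h. Its 7 libraries up to 60 h ranged from 5.35 to 15.9 FPKM and the 8 later ones from 14.9 to 39.0 FPKM, so that these ranges overlapped. Elp4 was at 8.17 FPKM at 0 h and at 11.2 FPKM at 125.5 h.

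Lhx2 was at 0.253 FPKM at 0 h, 1.35 at 41.5 h and 2.74 at 68.5 h. It then held between 2.42 and 3.53 FPKM to 144 h and was at 7.17 FPKM at 216 h. Lhx5 was at most 0.171 FPKM up to 60 h and then at 0.457, 0.995, 1.33 and 1.99 FPKM at 68.5, 80.5, 92.5 and 101.5 h. It reached 5.59 FPKM at 125.5 h and 6.45 at 140.5 h, and stood at 4.59 and 5.17 FPKM at 144 and 216 h. Fezf1 was at most 0.235 FPKM through 101.5 h and reached 0.580 FPKM at 125.5 h and 1.02 at 144 h. The peak of Fezf1 in the SFEB table was 13.3 FPKM and that of Lhx2 26.1 FPKM.

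Six3, a Six-family factor of the eye field and the anterior forebrain (chr17:86012948-86031153, plus strand), stayed at or under 0.136 FPKM in the 13 libraries to 140.5 h. It was at 2.35 FPKM at 144 h and 0.682 FPKM at 216 h. Six3os1, a transcript from the opposite strand whose exons share 106 bases with those of Six3, had the same step, from 0.145 FPKM at 140.5 h to 1.88 FPKM at 144 h. Without strand information the reads of the shared bases cannot be told apart. Hesx1, a homeodomain repressor of the prospective forebrain and pituitary (chr14:27813548-27815515, plus strand), had an early hump. It went from 0.403 FPKM at 0 h to 0.698 at 8.5 h and 1.10 at 20.5 h, and was listed at 0 at 80.5 and 92.5 h. It was at 0.106 FPKM at 140.5 h, 0.779 at 144 h and 0.217 at 216 h.

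Other cell type markers moved at the same library. The 3 surface ectoderm markers present summed to 70.3 FPKM at 140.5 h, 386 FPKM at 144 h and 122 FPKM at 216 h. The 4 endoderm markers went from 9.95 to 43.7 and 28.6 FPKM, and the 2 mesoderm markers from 1.01 to 23.8 and 11.7 FPKM. Neural progenitor markers, all 7 at 1 FPKM or more, stood at 852, 1088 and 1175 FPKM. Whether these cells carried the Six3 and Hesx1 transcripts was not tested, and 144 h is 1 library.

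In the WT E14 line, Pax6 rose from day 0 to day 4. It was at 0.140, 0.121 and 0.214 FPKM in the 3 WT day 0 libraries and at 26.8, 3.71 and 6.77 FPKM in the 3 WT day 4 libraries, which did not overlap. The change was 3.12 ± 0.55 on the log2(FPKM + 1) scale (SE, n = 3 against 3, adjusted p = 0.00260, limma), at a test that 25.8% of the 12257 genes passed. Only Pax6 and Hesx1 reached 1 FPKM in 3 libraries and were tested, so 1 of the 2 members tested was called. Pax6 passed the filter through the day 4 libraries, where it is high, so this count does not bear on the members as a whole. With the filter left out 1 of 9 members was called, where 17.1% of the 18841 genes were.

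**Figure D3:**
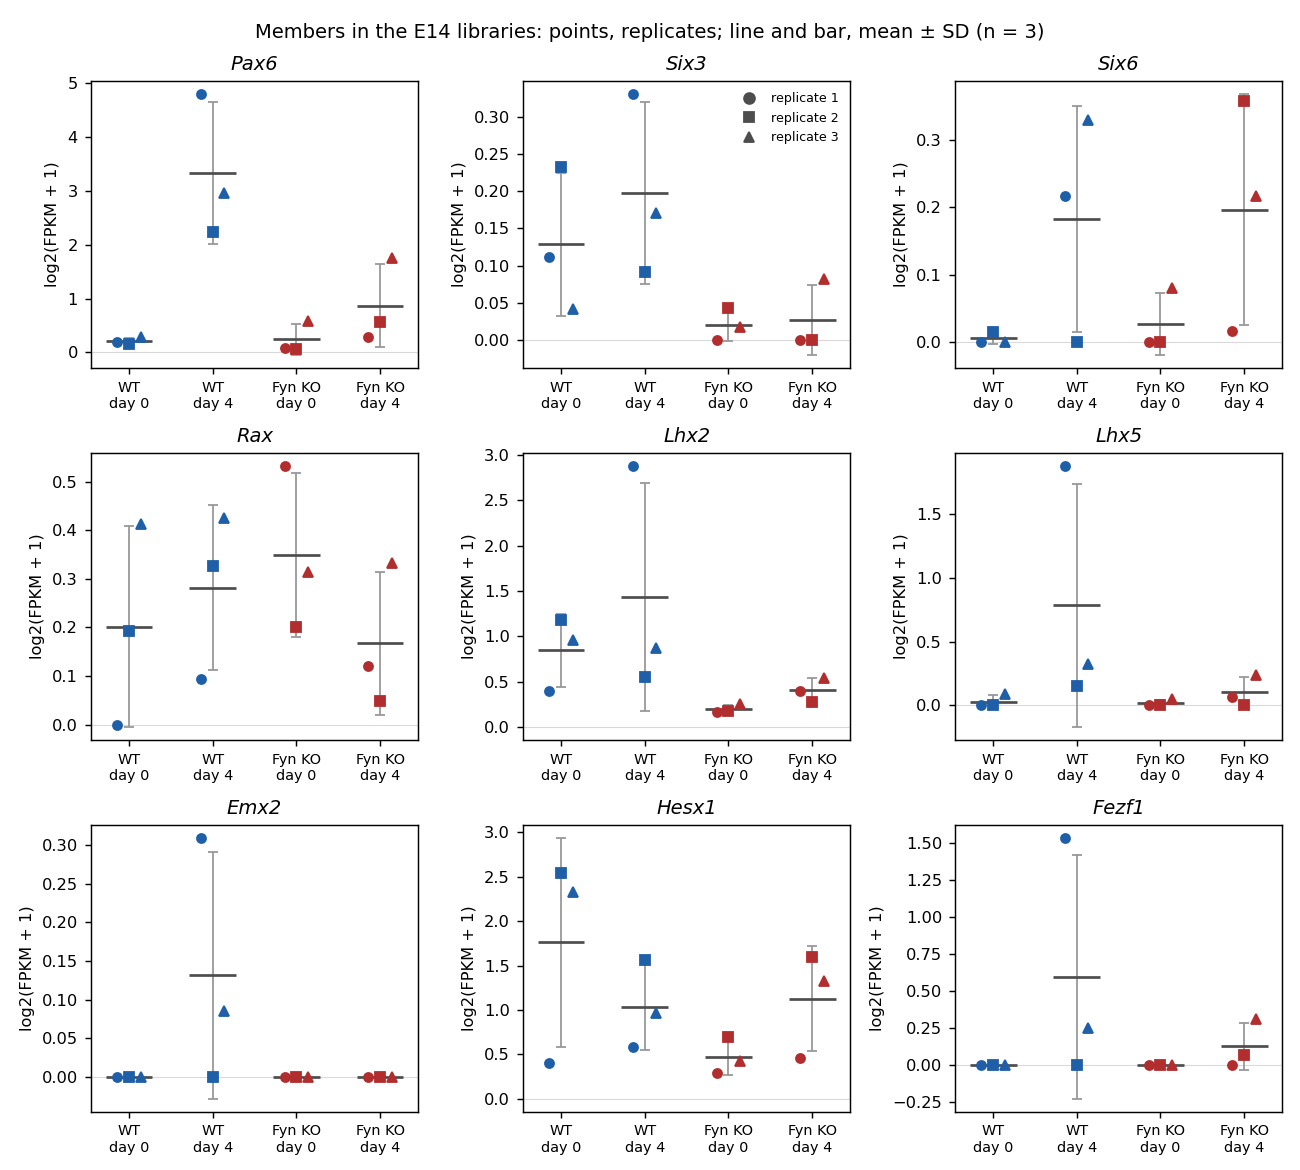
log2(FPKM + 1) (vertical axis, own scale in each panel) of the 9 members in the 4 E14 groups; symbols are replicates, the line is the mean and the bar the SD of 3 libraries. Pax6 in the 3 WT day 4 libraries lies above all other groups, WT day 4 replicate 1 is the top point for Pax6, Six3, Lhx2, Lhx5, Emx2 and Fezf1, and Hesx1 overlaps in every comparison.

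In the Fyn KO line Pax6 was at 0.0623, 0.0451 and 0.496 FPKM at day 0 and at 0.228, 0.475 and 2.37 FPKM at day 4. These groups overlapped, with a change of 0.63 ± 0.55 (SE, adjusted p = 0.451, limma). The overlap came from KO day 0 replicate 3, at 0.496 FPKM, without which the change was 0.79 (adjusted p = 0.380, limma), and without KO day 4 replicate 3 it was 0.18 (adjusted p = 0.869, limma). Over all alternatives the change ran from 0.18 to 1.68 and did not pass in any. Of the 2 members tested 0 passed here, where 19.3% of all genes did. At day 4 each KO library was below each WT library, the highest KO value being 2.37 and the lowest WT value 3.71 FPKM. The difference was -2.46 ± 0.55 with an unadjusted p of 8.22e-04 and an adjusted p of 0.117 (limma), which did not pass. Of the 2 members tested 0 passed, and 0.0734% of all genes did, 9 of 12257. The adjusted p ranged from 0.0889 to 0.339 over the alternatives and the difference from -3.52 to -1.73, the latter without WT day 4 replicate 1. At day 0 the KO and WT values of Pax6 differed by 0.03 ± 0.55 (SE, adjusted p = 0.990, limma).

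The difference of the day 4 change in Pax6, KO minus WT, was -2.49 ± 0.78 (SE, unadjusted p = 0.00786, adjusted p = 0.997, limma), which did not pass. In this test of the difference of differences 0% of all genes passed, while 537 of the 12257 had an unadjusted p under 0.05. The comparisons at day 4 and over time share the WT day 4 libraries and are not independent of each other. Elp4 was at 9.80, 6.65 and 6.85 FPKM in WT day 4 and at 5.48, 6.62 and 6.82 FPKM in KO day 4.

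The 3 WT day 4 libraries differed widely among themselves. Summed over all genes, replicates 1, 2 and 3 had 909369, 687431 and 585912 FPKM, in a range of 525639 to 909369 over the E14 libraries. The main fit did not scale the libraries further, and the part of this in the values below was not tested. Replicate 1 held Lhx2 at 6.37 FPKM where the others had 0.464 and 0.828, Lhx5 at 2.67 against 0.109 and 0.251, Fezf1 at 1.89 against 0 and 0.187, and Emx2 at 0.239 against 0 and 0.0613. Sox1, a marker of neural progenitors, was at 47.2 FPKM in replicate 1 and at 7.81 and 11.6 FPKM in the others. The 7 pluripotency markers summed to 741 FPKM in replicate 1 and to 1955 and 1723 FPKM in replicates 2 and 3. Within the KO line, replicate 3 at day 4 had the highest Pax6, Lhx2, Lhx5 and Fezf1, at 2.37, 0.457, 0.178 and 0.236 FPKM, and the highest Sox1, at 7.08 FPKM against 0.990 and 1.27.

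Lhx2 values were lower in the KO libraries than in the WT libraries at both days, with no test passed. It was at 0.319, 1.26 and 0.940 FPKM in WT day 0, 6.37, 0.464 and 0.828 in WT day 4, 0.118, 0.129 and 0.189 in KO day 0 and 0.320, 0.212 and 0.457 in KO day 4. Each KO library was below each WT library of the same day. No test was made at these levels, which did not reach 1 FPKM in 3 libraries. With all genes above 0 in at least 1 library tested, the differences were -1.03 at day 4 (adjusted p = 0.488, limma) and -0.65 at day 0 (adjusted p = 0.682, limma). The day 4 difference takes in WT replicate 1 at 6.37 FPKM, and no fit of Lhx2 was made without that library.

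Hesx1 was at 0.324, 4.84 and 4.03 FPKM in WT day 0, 0.496, 1.94 and 0.952 in WT day 4, 0.226, 0.615 and 0.347 in KO day 0 and 0.378, 2.02 and 1.51 in KO day 4. The groups overlapped in each comparison. The changes were -0.73 ± 0.51 from day 0 to day 4 in WT (adjusted p = 0.317, limma), 0.66 ± 0.51 in KO (adjusted p = 0.386, limma) and 0.09 ± 0.51 between KO and WT at day 4 (adjusted p = 0.967, limma). At day 0 the difference was -1.29 ± 0.51 (adjusted p = 0.274, limma). Of the 2 members tested 0 passed at day 0, where 0.171% of all genes did. The Hesx1 difference turned on WT day 0 replicate 1, the one low WT library. Without that library the difference was -1.97 (adjusted p = 0.0343, limma) and the WT change to day 4 was -1.40 (adjusted p = 0.0207, limma). Without WT day 0 replicate 2 they were -0.90 (adjusted p = 0.689, limma) and -0.33 (adjusted p = 0.718, limma), and without replicate 3 they were -1.003 (adjusted p = 0.518, limma) and -0.44 (adjusted p = 0.626, limma). The difference of the day 4 change between KO and WT was 1.38 ± 0.72 (adjusted p = 0.997, limma).

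The remaining members were near the bottom of the E14 table. Rax, a homeodomain factor that specifies the eye field, was between 0 and 0.447 FPKM in the 12 libraries and its groups overlapped throughout. Six3 was at most 0.257 FPKM and Six6 at most 0.281 FPKM. Emx2 was listed at 0 in 10 of 12 libraries and Fezf1 in 8 of 12. Counting groups that did not overlap, 2 of the 9 members were higher in WT at day 4 than at day 0 (Pax6 and Lhx5; 21.7% of the 18841 genes above 0 in any library). In the KO line it was 1 of 9, Lhx2 (19.2%). At day 4, 3 of 9 members were lower in KO than in WT, namely Pax6, Six3 and Lhx2 (7.93%), and at day 0 it was 1 of 9, Lhx2 (9.1%). The day 4 margins of Six3 and Lhx2 were narrow and at values under 1 FPKM. The highest KO and lowest WT values were 0.0584 and 0.0655 FPKM for Six3 and 0.457 and 0.464 FPKM for Lhx2. The day 4 and day 0 comparisons of WT share libraries with those of KO against WT. Both counts that use WT day 4 were the same without its replicate 1.

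In single cells the members reached 1 RPKM in few cells, and a cell was counted as holding a transcript at that level or more. Low values were more widespread. Values above 0 were found in 29 of 64 cells for Pax6, 22 for Lhx2, 10 for Fezf1, 9 for Six6 and 6 for Hesx1, so the counts that follow depend on this limit. Of the 64 cells, 11 held Pax6, 4 Lhx2, 3 Six6, 2 Hesx1 and 2 Fezf1, and 20 cells held at least 1 of these genes. Up to 60 h, 0 of 32 cells held Pax6, 0 Six6 and 0 Fezf1, while the bulk populations of these hours had Pax6 between 3.90 and 8.27 FPKM in the parallel series. From 84 h on, 11 of 32 cells held Pax6.

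**Figure D4:**
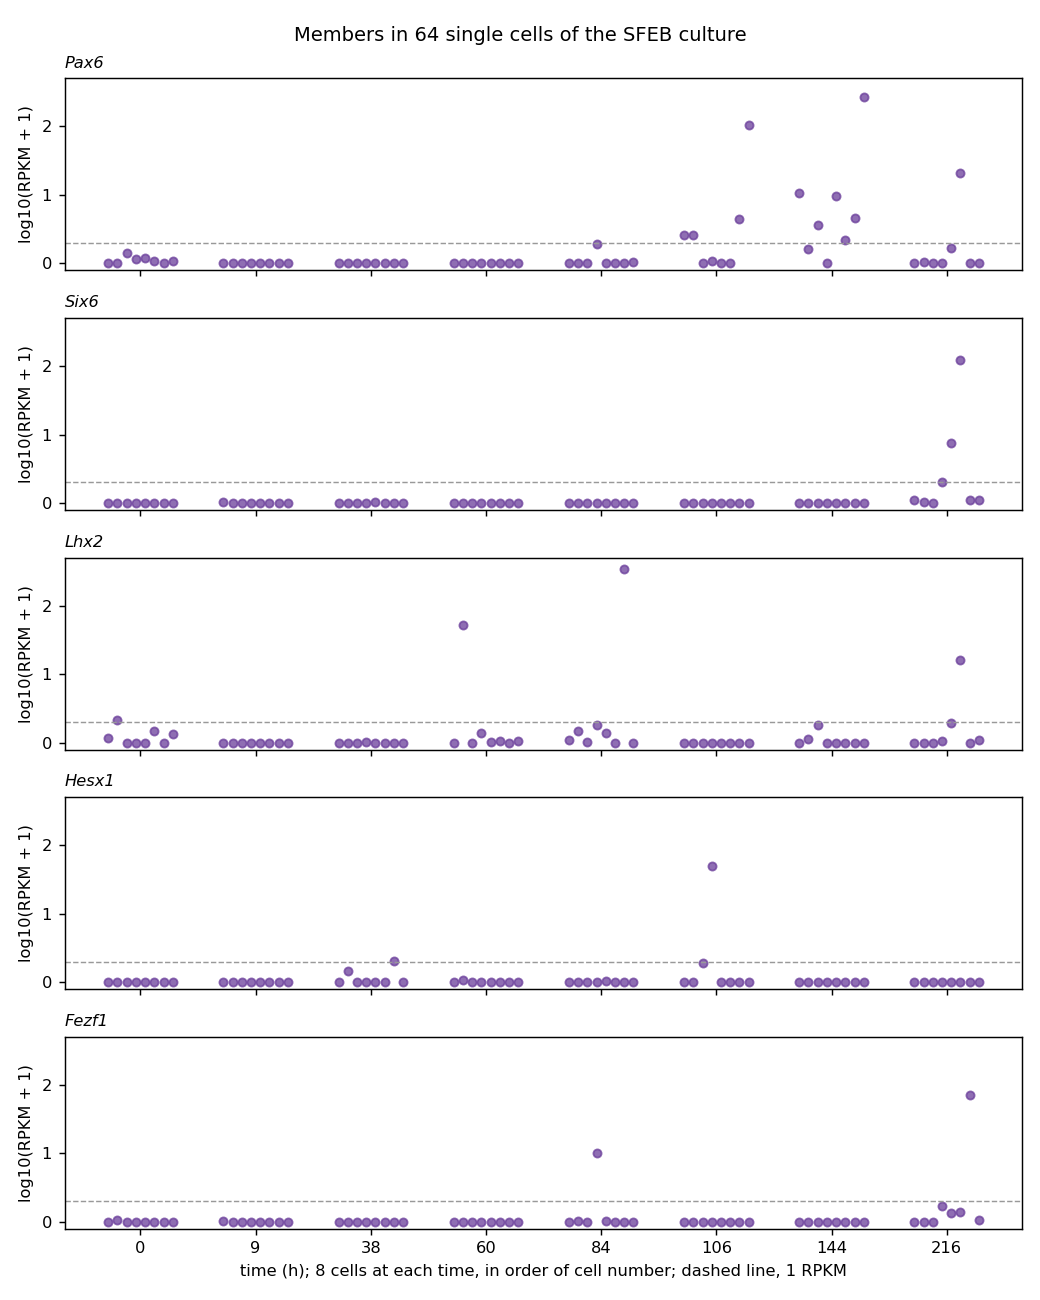
log10(RPKM + 1) (vertical axis) of the 5 members in the single-cell table at 8 times (horizontal axis), 8 cells a time; the dashed line is 1 RPKM. Pax6 lies above the line in 4 cells at 106 h, 6 at 144 h and 1 at 216 h, Six6 in 3 cells at 216 h only, and Lhx2, Hesx1 and Fezf1 in single cells.

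Pax6 was held by 4 of 8 cells at 106 h (50%, 95% exact binomial interval 15.7 to 84.3%), 6 of 8 at 144 h (75%, 34.9 to 96.8%) and 1 of 8 at 216 h (12.5%, 0.316 to 52.7%). These intervals overlap and cover sampling of cells only, since 8 cells of a time come from 1 culture. At 106 h the cells that held it were at 1.62, 1.57, 3.53 and 105 RPKM, and at 144 h at 9.62, 2.68, 8.80, 1.19, 3.68 and 270 RPKM. One cell at each time thus carried most of the summed value, and 8 of the 11 cells that held Pax6 were under 10 RPKM. The mean over 8 cells was 13.96 RPKM at 106 h, 37.1 at 144 h and 2.60 at 216 h, beside 11.7, 28.5 and 20.7 FPKM in the parallel populations of these hours. The median number of genes above 0 was 7270, 6145 and 7952 at these times, and the part of this in the Pax6 shares was not tested. At 0 h, 5 of 8 cells had Pax6 above 0, with 0.413 RPKM as the highest.

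Six6 was held by 3 of 8 cells at 216 h (37.5%, 8.52 to 75.5%), at 122, 6.41 and 1.04 RPKM, and by 0 of the 56 others. It was the one member whose time course passed the test, at a span of 4.14 on the log2 scale of the mean over cells (adjusted p = 0.0305, limma on 8 time points), where 1.21% of 11449 genes passed. Every cell that held it was from 216 h, and the call rested on 1 of them. The mean at 216 h was 16.2 RPKM, and 1.12 RPKM without the cell at 122 RPKM (cell 12). With that cell left out, an alternative chosen after the values were seen, the span was 1.09 and did not pass (adjusted p = 0.444, limma). The call was also lost under linear time (adjusted p = 0.132), under a spline with 3 degrees of freedom (adjusted p = 0.0578) and with a pseudocount of 0.1 RPKM (adjusted p = 0.0613). The parallel population had Six6 at 1.57 FPKM at 106 h and 1.41 FPKM at 216 h, and 0 of 8 cells held it at 106 h. The exact interval reaches to 36.9% of cells with Six6 at 1 RPKM or more, which is no limit on cells that express it. Six3os1 is in the table in place of Six3. It was held by 4 of the 64 cells, all at 216 h, and 3 of them were the 3 cells with Six6. Its values there were 127, 5.72 and 1.06 RPKM, close to those of Six6 in the same cells, and it reached 1.36 RPKM in 1 other. The likeness of the 2 genes was noticed after their values were seen.

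Lhx2 was held by 1 cell at 0 h, at 1.16 RPKM, 1 at 60 h, at 51.9 RPKM, 1 at 84 h, at 339 RPKM, and 1 at 216 h, at 15.3 RPKM. None of the 16 cells at 106 and 144 h held it, although the parallel populations had 5.40 and 10.4 FPKM. Hesx1 was held by 1 cell at 38 h, at 1.07 RPKM, and by 1 at 106 h, at 48.3 RPKM. Fezf1 was held by 1 cell at 84 h, at 9.30 RPKM, and by 1 at 216 h, at 70.1 RPKM. The adjusted p-values of these courses were 0.146 for Fezf1, 0.415 for Pax6, 0.692 for Hesx1 and 0.748 for Lhx2 (limma), with 8 time points to each test.

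Of the 20 cells with a member, 19 held 1 and 1 held 3. This count depends on the limit: 5 cells had 2 or more members above 0.5 RPKM and 19 cells above 0. The cell with 3, cell 12 of 216 h, had Six6 at 122 RPKM, Pax6 at 20.02 and Lhx2 at 15.3, with Six3os1 at 127 RPKM. Its neural progenitor markers summed to 8684 RPKM, the highest of the 8 cells of that time, and its pluripotency markers to 15.1 RPKM, with Tubb3, a neuronal tubulin, at 1014 RPKM. It had 8198 genes above 0, within the range of 6771 to 8957 for the time. Among the 8 cells of 216 h, cell 16 went against its time label, with pluripotency markers summing to 586 RPKM and neural progenitor markers to 16.8 RPKM, where the other 7 had 3.55 to 62.8 and 1003 to 8684 RPKM. It held none of the members. At 1 RPKM no other cell held a pair of members, and Pax6 was absent at 1 RPKM from 3 of the 4 cells with Lhx2 and 2 of the 3 with Six6.

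Partner genes of these factors were counted from lists. Of 12 eye field and optic genes, 8 were in the SFEB table, and 6 rose and 2 fell. Otx2, an anterior neural and epiblast factor, was highest at 68.8 FPKM at 42.5 h, and Fgf15, a signal of the anterior neural plate, at 63.98 FPKM at 103 h. Mab21l2, which acts in eye and midbrain, was highest at 33.5 FPKM at 216 h, and Bmp4, a signal that fell, at 13.8 FPKM at 8 h. Of 16 genes of telencephalon and diencephalon, 10 were tested and 10 rose, among them Irx3, highest at 63.6 FPKM at 142 h, and Otx1, highest at 20.8 FPKM at 103 h. Irx3 also marks more posterior neural tissue. All 12 genes of midbrain and hindbrain were tested, and 11 rose and 1 fell, so genes of other regions rose in the same libraries. These counts stand against 87.9% of the 13530 genes called in this test. The median span was 2.53, 3.65 and 2.32 for the 3 lists and 1.03 for all genes.

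In the adherent culture 7 eye field and optic genes were tested, of which 5 rose and 2 fell. The 4 genes of telencephalon and diencephalon tested all rose, and of 11 midbrain and hindbrain genes 8 rose and 1 fell, where 70.8% of the 13527 genes were called. Irx3 reached 79.5 FPKM there, and Otx1 1.55 FPKM. The median span was 2.55, 3.01 and 1.53 for the lists and 0.90 for all genes. In WT E14 cells from day 0 to day 4, 2 of the 5 eye field and optic genes tested rose and 2 fell (25.8% of all genes were called), with Otx2 up by 3.69 (adjusted p = 0.00702, limma) and Fgf15 by 3.97 (adjusted p = 7.26e-04, limma). In KO cells 2 rose and 1 fell (19.3% of all genes), with Otx2 up by 5.22 (adjusted p = 0.00173, limma) and Fgf15 by 2.74 (adjusted p = 0.00625, limma). Irx3, the 1 telencephalon and diencephalon gene tested, rose in WT by 3.07 (adjusted p = 0.00783, limma) and had a change of 0.71 in KO (adjusted p = 0.489, limma). Its difference at day 4 was -2.42 (adjusted p = 0.187, limma). The 16 genes of that list summed to 67.1 FPKM in WT day 4 replicate 1 and to 5.63 and 5.11 FPKM in replicates 2 and 3. Otx2 was at 86.7, 109.8 and 137.4 FPKM in KO day 4 and at 61.3, 79.7 and 80.8 FPKM in WT day 4. Each KO value was above each WT value, as for 5.54% of the 18841 genes, and the difference of 0.57 did not pass (adjusted p = 0.837, limma). None of the 10 genes tested from the 3 lists passed between KO and WT at day 4, where 0.0734% of all genes did.

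The genes whose courses were most like those of Pax6, Lhx2 and Lhx5 were ranked by the lower of Pearson's r over the 22 SFEB populations and over the 15 adherent libraries, among 13136 genes. For Lhx5 they were Scube1 (0.985), Pax2 (0.972), a paired-box gene of the optic stalk and the midbrain-hindbrain boundary, and Kirrel3 (0.971). For Lhx2 they were Zfp618 (0.969), Wnk2 (0.958) and Ankrd13b (0.955). For Pax6 they were 1110004F10Rik (0.923), Tubgcp3 (0.918) and 2010321M09Rik (0.917). By Spearman's rho the 3 leading genes of each member were different ones, 0 of 9 being shared, so the ranking serves only as a description of many similar courses.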

How the data were processed

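RNA-seq was measured in 113 samples. For the adherent and E14 cells the authors deposited FPKM. For the SFEB populations they deposited FPKM after a batch adjustment, of which 1256 of 297902 were below 0 and were set to 0. For single cells they deposited log10(RPKM + 1) after quantile normalization. The submitters' processing notes name TopHat2 2.0.8b and Cufflinks 2.1.1 with mm9 and mm10, while the study's methods name earlier versions of these programs with mm9. The stated filter on single-cell genes does not hold for 2008 of 11449 genes in the file. Quantile normalization gives every cell nearly the same distribution, and FPKM are relative to the sampled transcripts, so a change can reflect other genes.

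Genes with at least 1 FPKM in 3 of 12 E14 libraries were fitted with limma 3.58.1 (R 4.3.3) on log2(FPKM + 1), in 1 model of 4 groups with 3 replicates each. Population time courses were fitted on genes above 0.5 FPKM in at least 3 libraries with a natural spline of 3 degrees of freedom. The single-cell course was fitted on the means over 8 cells for all 11449 genes, with no filter and 2 degrees of freedom. All were tested by limma's moderated F. Tests were two-sided, with Benjamini-Hochberg adjustment at 0.05. The fits were tested on simulated data. A fold change on log2(value + 1) understates the change of low genes. The spread of time-course fits comes from deviations from the curve, since each time is 1 library. Same-numbered E14 libraries deviated together for WT day 4 and day 0 (r = 0.199, 0.220 and 0.224) and for KO and WT at day 4 (r = 0.136, 0.258 and 0.240), and not in the other comparisons.

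The members, gene lists and tests were chosen with earlier results of these data known. Named genes are the 9 members, the 3 genes most like each member above 0.5 FPKM in 3 libraries of both bulk courses, Fyn, and from each partner list the 4 with the highest SFEB level, with midbrain and hindbrain genes given as counts and 2 genes that the rule names not reported here; the detail on Six3os1, Elp4, Sox1 and Tubb3 was added after their values were seen. Promoters are from RefSeq (GRCm38.p6) and gene positions from GENCODE M1 (mm9). Alternatives were other pseudocounts, filters, scalings, splines and the omission of libraries.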

Additional observations from a re-analysis of the deposited data

Results flagged for a closer look

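In groups of 8 cells of 1 time, a cell was singled out where its gap to the next on the log10(RPKM + 1) scale, divided by the range of the group, was above Dixon's critical value of 0.526. Chance gives about 5% of groups of unselected values, but these groups were kept for holding a cell at 1 RPKM or more in genes near 0 in most cells, so that rate does not apply and the count is a description. Of the 12 pairs of a member and a time with at least 1 cell at 1 RPKM or more, 10 were singled out, each for 1 high cell. For Pax6 the cells were at 105 RPKM at 106 h (next cell 3.53), 270 RPKM at 144 h (next 9.62) and 20.02 RPKM at 216 h (next 0.666). For Lhx2 they were at 51.9 RPKM at 60 h (next 0.372), 339 RPKM at 84 h (next 0.841) and 15.3 RPKM at 216 h (next 0.922). Six6 was at 122 RPKM at 216 h (next 6.41) and Hesx1 at 48.3 RPKM at 106 h (next 0.943). Fezf1 was at 9.30 RPKM at 84 h (next 0.0363) and 70.1 RPKM at 216 h (next 0.706). The values of Pax6, Six6 and Lhx2 at 216 h are those of the same cell.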

How the results depend on the processing

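The number of members called was within 1.5 times that reported in 84 of 90 alternative fits. Without single E14 replicates it was 1 to 2 for WT day 4 against day 0 and 0 to 1 for KO against WT at day 0, the higher count in both cases without WT day 0 replicate 1, where Hesx1 passed, and 0 in the other E14 comparisons. In single cells it was 0 under linear time, a spline with 3 degrees of freedom, a pseudocount of 0.1 RPKM and without cell 12 of 216 h, the last chosen after the data had been seen. In the adherent culture Hesx1 passed under 5 of 6 alternatives (adjusted p from 0.0113 to 0.0811). The fits of only the 2 groups compared left no member to test for KO day 4 against day 0 and for KO against WT at day 0, and this choice cannot be made for the difference of changes. With the replicate block no call of a member changed and the member counts were 1, 0, 0, 0 and 0; for Pax6 at day 4 the adjusted p was 0.0995. The count of all genes called went from 21 to 38 with the block for KO against WT at day 0, where the numbers do not pair the samples, and from 0 to 2 for the difference of changes.

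With the first series alone the SFEB course of Six6 spanned 1.92 (adjusted p = 1.89e-04, limma) and its fitted curve ended lower than it began (end minus start -0.20), while the observed values were 0.0556 FPKM at 0 h and 0.160 FPKM at 142 h. With 3 degrees of freedom the single-cell curve of Hesx1, at a span of 1.33, also ended lower than it began, and did not pass (adjusted p = 0.687, limma), and likewise that of Lhx2 without cell 12 of 216 h, at a span of 2.63 (adjusted p = 0.621, limma). The other directions that turned were differences near 0 in E14 cells, and the cause was not tested in any case. That of Hesx1 between KO and WT at day 4 ran from -0.14 to 0.42 over the omissions of 1 library, below 0 without KO replicate 2 (-0.14), KO replicate 3 (-0.0069) or WT replicate 1 (-0.13), and that of Pax6 at day 0 ran from -0.14, without KO replicate 3, to 0.12, and was -0.082 with a pseudocount of 0.1. With quantile normalization the 1904 genes higher and 1262 lower in WT day 4 became 1576 and 1532, the 1443 and 927 in KO became 1226 and 1176, the 6369 and 5530 of the SFEB course became 5630 and 6422, and the 5620 and 3959 of the adherent course became 4628 and 4959. Counts over all genes that moved by more than 1.5 times ran, for WT day 4 against day 0, from 3166 to 1831 without WT day 0 replicate 2 and 1991 without replicate 3; for KO from 2370 to 1041, 1150 and 1281 without KO day 0 replicate 2, KO day 4 replicate 3 and KO day 0 replicate 1; for KO against WT at day 4 from 9 to between 5 and 24, and at day 0 from 21 to between 2 and 128, the latter without WT day 0 replicate 1; for the difference of changes from 0 to at most 4; for SFEB from 11899 to 7688 with the parallel series alone; and for cells from 139 to between 18 and 318. All 18 onsets existed at 1 and 0.5 FPKM and 15 at 2 FPKM. Chosen after the data had been seen, a limit of 0.5 RPKM gave 14 cells with Pax6 and 7 with Lhx2, and a limit of 0 gave 29 and 22, with 5 and 19 cells holding 2 or more members in place of 1. By Spearman's rho 0 of the 9 genes most like a member were shared. Depth is unknown, so values under 1 FPKM have no stated precision.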
